A study of Mus musculus with 10 samples.

Results

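Myosin heavy chains are the motor subunits of class II myosins. The genes described are Myh6, Myh7, Myh7b, Myh8, Myh13, Myh3, Myh9, Myh10 and Myh14, 9 of the 25239 gene symbols in the tables. They were taken by symbol from a fixed list, and every one had reads. Their transcripts were measured by RNA sequencing in 5 libraries of cardiomyocytes from the atrium and 5 from the ventricle of the mouse, all of genotype WT. The sources used here give no age, sex or strain and no method of cell isolation. They do not say either that the libraries of a chamber were made from different animals, and p-values therefore cover only the spread between libraries, which may be technical.

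Each heavy chain carries an ATPase head that pulls on actin and a long tail that pairs with another heavy chain and assembles into filaments. The sarcomeric members set how fast muscle shortens. Myh6 encodes the fast alpha chain of the heart and Myh7 the slower beta chain, and in the mouse ventricle Myh7 is the main form before birth and Myh6 the main form in the adult. Myh7b is a slow-type relative that is also transcribed in the heart. Myh3 and Myh8 are the embryonic and perinatal chains of skeletal muscle, and Myh13 is the chain of the extraocular muscles. Myh9, Myh10 and Myh14 encode the non-muscle chains IIA, IIB and IIC, which act in cell shape, adhesion and division.

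Myh6, Myh7 and Myh7b each hold a microRNA gene on their own strand, between exons of the host, and these microRNAs are known to act in a feedback on heavy chain expression in the mouse heart. Their mature strands are shown because they tie the 3 host genes to each other. Capitals mark the seed, bases 2 to 8, and the sequences are those of RefSeq on GRCm38.p6.
mmu-miR-208a-3p (in Myh6, chr14:54949072-54949093, minus strand): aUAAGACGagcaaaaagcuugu
mmu-miR-208b-3p (in Myh7, chr14:54975710-54975731, minus strand): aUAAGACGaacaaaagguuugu
mmu-miR-499-5p (in Myh7b, chr2:155622893-155622913, plus strand): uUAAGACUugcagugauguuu

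The first pair shared the seed UAAGACG and matched at 19 of 22 bases, while miR-499-5p had the seed UAAGACU and matched miR-208a-3p at 12 of the 21 bases compared. The tables also list the hairpin genes. Mir499 had 0 reads in every library, Mir208a had 47 reads over the 10 libraries and Mir208b had 60, so these libraries do not measure them.

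The 250 bases before the annotated starts of the same 3 genes are shown because Myh6 was at like levels in the chambers and Myh7 and Myh7b were not. Capitals mark matches on either strand to the M-CAT word CATTCC, which TEAD factors read, and to the E-box CANNTG. They also mark the GATA words, written AGATAA as well as AGATAG, and would mark a TATA box written TATAAA or else as TATATA. The MEF2 site and the CArG box were searched too and gave no match in these windows.
Myh6 (chr14:54966608-54966857, minus strand): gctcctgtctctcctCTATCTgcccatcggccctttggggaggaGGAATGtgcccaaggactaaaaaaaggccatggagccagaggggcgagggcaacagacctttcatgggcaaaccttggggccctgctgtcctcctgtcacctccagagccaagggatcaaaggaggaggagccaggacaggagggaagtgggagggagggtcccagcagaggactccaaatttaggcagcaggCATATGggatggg
Myh7 (chr14:54994627-54994876, minus strand): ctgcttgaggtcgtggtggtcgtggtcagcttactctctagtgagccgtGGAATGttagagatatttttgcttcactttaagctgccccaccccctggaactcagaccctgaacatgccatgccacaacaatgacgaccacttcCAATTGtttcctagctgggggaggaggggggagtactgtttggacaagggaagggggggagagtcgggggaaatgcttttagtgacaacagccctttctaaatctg
Myh7b (chr2:155610993-155611242, plus strand): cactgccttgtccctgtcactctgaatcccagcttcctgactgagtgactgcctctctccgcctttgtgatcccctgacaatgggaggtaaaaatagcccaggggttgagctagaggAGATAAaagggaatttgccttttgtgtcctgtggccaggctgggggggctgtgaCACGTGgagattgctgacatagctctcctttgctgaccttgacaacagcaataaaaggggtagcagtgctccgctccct

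Myh6 and Myh7 each held the M-CAT word on the opposite strand (GGAATG), 206 to 201 and 201 to 196 bases before the start, and Myh7b held none. Of 27025 RefSeq promoters cut to the same length, 12.6% held that word, 66.0% an E-box, 16.9% the GATA word, 13.0% TATAAA, 5.56% TATATA, 1.73% the MEF2 site and 1.40% the CArG box. The starts used for Myh6 (54966607) and Myh7b (155611243) lie inside the gene spans given below. The Myh6 window therefore lies wholly, and the Myh7b window partly, inside its gene. RefSeq gives a further start for Myh7, also inside the gene, and TATATA lay 31 to 26 bases before it. These matches are letters in a window, and no binding was measured.

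The deposited values, called normalized reads here, are counts after the authors' DESeq2 scaling of each library. Total reads were 1790402 to 4445287 in replicates 1 and 2 and 11163805 to 12842635 in replicates 3 to 5. Reads of the 45S ribosomal RNA precursor made up 0.215% to 0.480% in replicates 1 and 2 and 23.1% to 29.8% in replicates 3 to 5 in either chamber, a division that the labels do not mention. Where a gene is at 0, up to 3 reads could have been missed, equal to 4.14 to 10.4 normalized reads in replicates 1 and 2 and 1.70 to 2.005 in replicates 3 to 5. Atrial replicate 1 had reads over 21576 symbols, against 15950 to 16618 in the other atrial libraries, and ventricular replicate 1 over 19232, against 16064 to 16458 in the other ventricular libraries. Members' values are therefore given for each library and for each set of replicates. The cardiomyocyte markers Tnnt2, Tnni3, Actn2, Ryr2, Ttn, Atp2a2, Actc1 and Pln all had reads, summing to 222390 to 591150 normalized reads in atrial and 260914 to 563523 in ventricular libraries. Ttn alone had 373180 in atrial and 279315 in ventricular replicate 1, against 22745 to 30391 in replicates 3 to 5 of both chambers. The highest sums rest in large part on Ttn, so their range does not measure cardiomyocyte content.

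**Figure D1:**
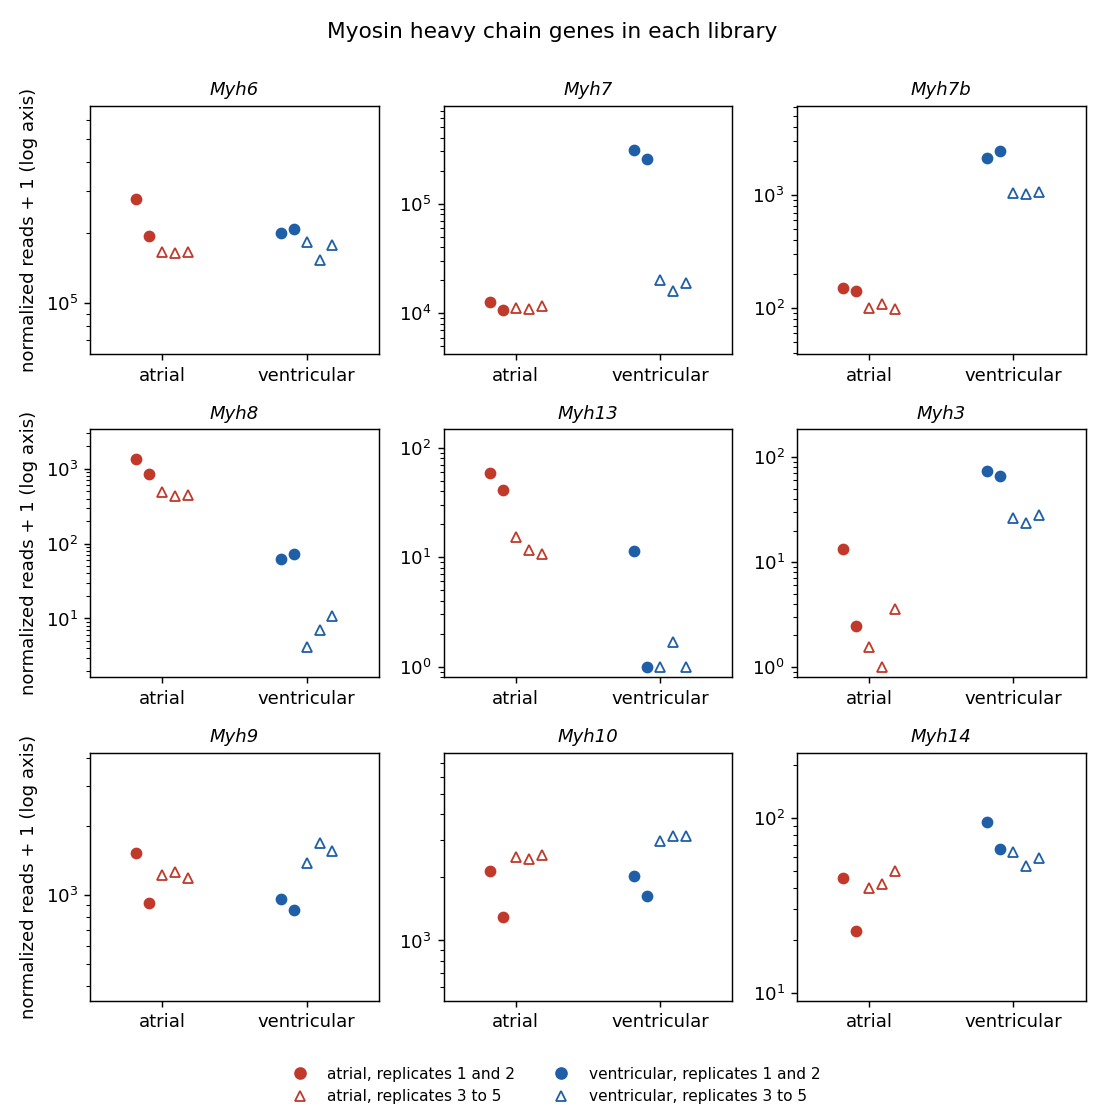
Normalized reads plus 1 (log axis, scaled for each gene) of the 9 myosin heavy chain genes in 5 atrial and 5 ventricular libraries, each point 1 library, with replicates 1 and 2 filled and replicates 3 to 5 open. Myh7 in ventricular replicates 1 and 2 stands at 311139 and 255207 normalized reads, far above the other 8 libraries, and the atrial and ventricular points of Myh7b and Myh8 do not meet.

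All 9 members passed the filter of a mean of 10 normalized reads and were tested among 12422 genes. Myh8 and Myh13 were higher in atrial and Myh7b and Myh3 higher in ventricular cardiomyocytes. Each of the 4 passed limma's moderated test on log2(normalized reads + 1) at an adjusted p of 0.05. The background was 14.7% of genes tested called in either direction, 8.12% toward atrial and 6.56% toward ventricular cells. Myh13 and Myh3 passed the filter through the chamber where they were high, so the count describes the family and supports no pattern. For 5 of 9 members (Myh7, Myh7b, Myh8, Myh3 and Myh14) the chambers' values did not overlap, against 14.4% of genes tested. The median log2 difference over the members was -0.23, atrial minus ventricular as everywhere below, and -0.01 over the genes tested.

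Of the cardiac chains, Myh6 had more reads, not divided by length, than any other member in 8 of the 10 libraries. It differed little between chambers. Myh6 (ENSMUSG00000040752, chromosome 14, 54941921 to 54966927, minus strand, GRCm38) had 276695, 194074, 164975, 162899 and 164398 normalized reads in atrial replicates 1 to 5, and 198254, 207376, 182012, 152037 and 177209 in ventricular replicates 1 to 5. The groups overlapped, and atrial replicate 1 lay above the other 9 libraries. The log2 difference was 0.05 ± 0.18 (SE; limma, adjusted p = 0.927). It was 0.19 ± 0.18 within replicates 1 and 2 and -0.05 ± 0.07 within replicates 3 to 5, neither past the test (adjusted p = 0.649 and 0.592).

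Myh7 was higher in ventricular cells in every library, by an amount that depended on the replicates. Myh7 (ENSMUSG00000053093, chromosome 14, 54970684 to 54994626, minus strand) ends 3.76 kb upstream of Myh6. It had 12605, 10668, 11078, 11056 and 11683 normalized reads in atrial replicates 1 to 5, and 311139, 255207, 19982, 15958 and 19025 in ventricular replicates 1 to 5. The atrial libraries were close to each other, the ventricular libraries of replicates 3 to 5 stood just above them, and ventricular replicates 1 and 2 stood apart.

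In ventricular replicates 1 and 2 Myh7 had more reads than any other symbol in the table, and in ventricular replicates 3 to 5 it ranked between 17 and 19. Replicates 1 and 2 gave means of 11636 ± 1370 normalized reads for the atrium and 283173 ± 39550 for the ventricle (SD, n = 2), and limma a log2 difference of -4.60 ± 0.16 (adjusted p = 3.41e-06). Replicates 3 to 5 gave means of 11273 ± 356 for the atrium and 18322 ± 2102 for the ventricle (SD, n = 3), and limma -0.69 ± 0.07 (adjusted p = 1.21e-08). The atrial means of the sets were thus within 1.03-fold of each other, and the ventricular means 15.5-fold apart.

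The difference between these chamber effects was itself called for Myh7, at -3.91 ± 0.17 on the log2 scale (limma interaction term, adjusted p = 3.26e-06), and its p ranked 1 among the 12422 genes. Over all genes 5.21% were called in that test. Leaving out any library kept the interaction between -4.05 and -3.77. Over all 10 libraries the chamber difference of Myh7 was -2.26 ± 0.84, a fold of 10.9 between group means, and did not pass (limma, adjusted p = 0.109). It passed with edgeR's quasi-likelihood test on the recovered reads (log2 difference -3.45, adjusted p = 0.0226). That test called 5 members, 2 toward atrial (8.77% of genes) and 3 toward ventricular cells (7.29%). The sets of replicates also differ in depth and in ribosomal RNA, as given above, and the part of these in the Myh7 result was not tested.

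The share of Myh7 among Myh6 and Myh7 reads does not depend on the size factors. It was 4.36%, 5.21%, 6.29%, 6.36% and 6.64% in atrial replicates 1 to 5, and 61.1%, 55.2%, 9.89%, 9.50% and 9.70% in ventricular replicates 1 to 5. Exact Clopper-Pearson 95% intervals, which cover counting error only, ran from 4.27% to 4.45% in atrial replicate 1 and from 60.8% to 61.3% in ventricular replicate 1. Every ventricular share was above every atrial share. Within the atrium replicates 1 and 2 had the lower shares, and within the ventricle they had the higher ones. Myh6 and Myh7 are close paralogs, and reads that fit both cannot be assigned with certainty. Mhrt is a noncoding RNA antisense to Myh7, and its annotated span, introns included, covers exonic positions of Myh7. Its normalized reads averaged 249 ± 73.0 in the atrium and 277 ± 78.3 in the ventricle (SD, n = 5), few beside those of Myh7.

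**Figure D2:**
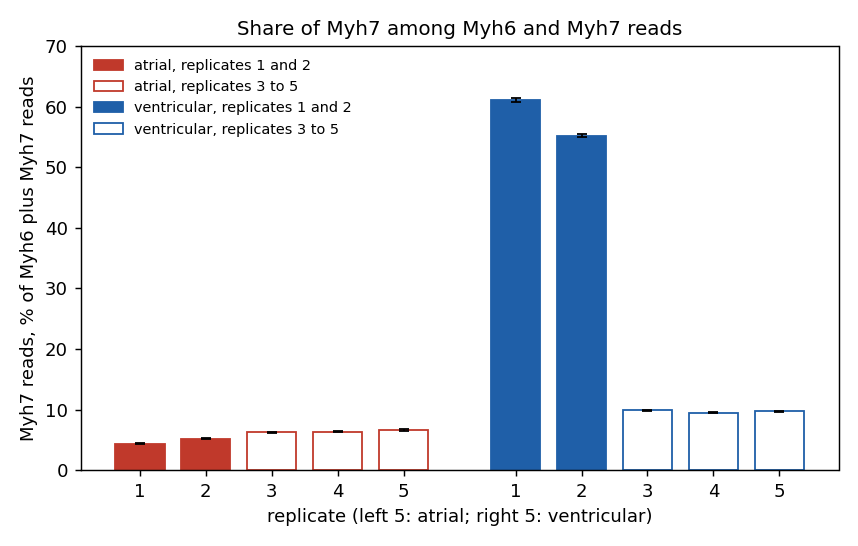
Myh7 reads as a percent of Myh6 plus Myh7 reads in each library, atrial replicates at the left and ventricular replicates at the right, with replicates 1 and 2 filled, replicates 3 to 5 open and error bars giving exact 95% Clopper-Pearson intervals. Atrial shares lie between 4.36% and 6.64%, ventricular replicates 3 to 5 between 9.50% and 9.89%, and ventricular replicates 1 and 2 at 61.1% and 55.2%.

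Myh7b was higher in ventricular cells in both sets of replicates. Myh7b (ENSMUSG00000074652, chromosome 2, 155611212 to 155634307, plus strand) had 149, 143, 99.4, 109 and 97.8 normalized reads in atrial replicates 1 to 5, and 2121, 2457, 1041, 1022 and 1062 in ventricular replicates 1 to 5. The lowest ventricular library was several times above the highest atrial one. The group means were 120 ± 24.4 and 1541 ± 693 (SD, n = 5). Its log2 difference of -3.59 ± 0.28 passed (limma, adjusted p = 1.32e-05), the 94th largest in absolute size among the genes tested.

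Within replicates 1 and 2 the Myh7b difference was -3.96 ± 0.19 and within replicates 3 to 5 it was -3.34 ± 0.07. The difference between these was called (-0.62 ± 0.14, limma, adjusted p = 0.0290). That call was lost, at adjusted p = 0.0638 to 0.0969, when any 1 of replicates 3 to 5 of either chamber was left out, and with libraries scaled to equal totals (adjusted p = 0.0507). The exons of Myh7b overlap the annotated span, introns included, of Trpc4ap on the opposite strand. Trpc4ap averaged 381 normalized reads over the 10 libraries. The strand setting of the counting is not given in the sources used here, so reads of any exons that both genes share cannot be told apart.

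The skeletal-type genes form a cluster of 6 on chromosome 11 that spans 293 kb of the plus strand, in the order Myh3, Myh2, Myh1, Myh4, Myh8 and Myh13. Genes of the cluster differed in opposite directions, with Myh3 at one end higher in ventricular cells and Myh8 and Myh13 at the other end higher in atrial cells. Myh2, the fast IIa chain, is not one of the 9 members. It was also higher in atrial cells. Its normalized reads averaged 61.0 ± 35.1 in the atrium and 4.64 ± 5.22 in the ventricle (SD, n = 5), and the log2 difference was 3.65 ± 0.54 (limma, adjusted p = 0.00107). Myh4 (1.97 ± 0.76, adjusted p = 0.124) did not pass and Myh1, with 67 reads over all libraries, was not tested. The antisense transcript Myhas was listed at 0 in every library.

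Myh8 (ENSMUSG00000055775, chromosome 11, 67277124 to 67308634) had 1346, 856, 489, 427 and 452 normalized reads in atrial replicates 1 to 5, and 62.3, 70.7, 3.10, 6.01 and 9.88 in ventricular replicates 1 to 5. In both chambers replicates 1 and 2 were the higher ones, and no ventricular library came near the atrial ones. The group means were 714 ± 394 and 30.4 ± 33.2 (SD, n = 5), 23.5-fold higher in atrial cells. Its log2 difference of 5.24 ± 0.78, or 4.44 with a pseudocount of 10, passed (limma, adjusted p = 0.00114 with a pseudocount of 1), and was the 24th largest in absolute size among the genes tested.

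Myh8 was 16.6-fold higher in atrial cells within replicates 1 and 2 (log2 difference 3.996 ± 0.27) and 72.0-fold within replicates 3 to 5 (6.07 ± 0.36), where ventricular libraries held 5 to 16 reads each. The difference between these effects was called (-2.07 ± 0.48, limma, adjusted p = 0.0360). The call was lost in 7 of the 10 fits that leave out 1 library, those without atrial replicates 2, 3, 4 or 5 or ventricular replicates 1, 2 or 4 (adjusted p = 0.0570 to 0.0988). It was also lost with a pseudocount of 10 (-1.03, adjusted p = 0.0735).

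Myh13 (ENSMUSG00000060180, chromosome 11, 67321658 to 67371586) was a low-level gene with the same direction. It had 57.9, 40.3, 14.2, 10.6 and 9.65 normalized reads in atrial replicates 1 to 5, and 10.4, 0, 0, 0.668 and 0 in ventricular replicates 1 to 5. These stand for 15 to 42 reads in each atrial library and for 4 reads over all ventricular libraries, so no ventricular library exceeded 3 reads. The groups overlapped through ventricular replicate 1. The fitted log2 difference, whose size depends on the pseudocount, was 3.58 ± 0.80 (limma, adjusted p = 0.0112), and 1.45 with a pseudocount of 10. Within replicates 1 and 2 alone it did not pass (3.87 ± 1.16, adjusted p = 0.116).

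Myh3 (ENSMUSG00000020908, chromosome 11, 67078300 to 67102291) went the other way. It had 12.4, 1.44, 0.568, 0 and 2.57 normalized reads in atrial replicates 1 to 5, from 9, 1, 1, 0 and 4 reads, and 72.7, 65.8, 25.4, 22.7 and 27.2 in ventricular replicates 1 to 5. The groups did not overlap, and replicates 1 and 2 were the higher ventricular libraries. The log2 difference was -3.77 ± 0.67 (limma, adjusted p = 0.00334). Its size too depends on the pseudocount, and with 10 in place of 1 it was -1.93. It was -3.62 ± 0.84 within replicates 1 and 2 and -3.87 ± 0.39 within replicates 3 to 5, each past the test (adjusted p = 0.0470 and 5.28e-09). No difference between the sets was called (0.26 ± 1.01, limma interaction, adjusted p = 0.922).

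Of 8 marker genes listed for skeletal muscle, 6 were tested. Myh2, Tnnt3 and Actn3 were higher in atrial cells and Ckm, which the heart also expresses, was higher in ventricular cells. The shares of all genes tested were 8.12% toward atrial and 6.56% toward ventricular cells. Mean normalized reads were 57.6 for Tnnt3 and 62.8 for Actn3 in the atrium, and 12.9 for Tnnt3 and 11.2 for Actn3 in the ventricle. These fast-muscle genes were higher in the same chamber as Myh8 and Myh13. Myh8 and Myh13 had their highest atrial values in atrial replicate 1. Myh2 (116) and Myh4 (44.1) also had theirs there, and Actn3 had its lowest, 12.4. The list's sum, mostly Ckm, was 10539 to 13497 in atrial and 13535 to 17973 normalized reads in ventricular libraries, and none of its genes was at 0 in every library. The part of other muscle cells in the Myh8 and Myh13 results was not tested. In bulk samples fewer cells of a type and less RNA per cell cannot be told apart.

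**Figure D3:**
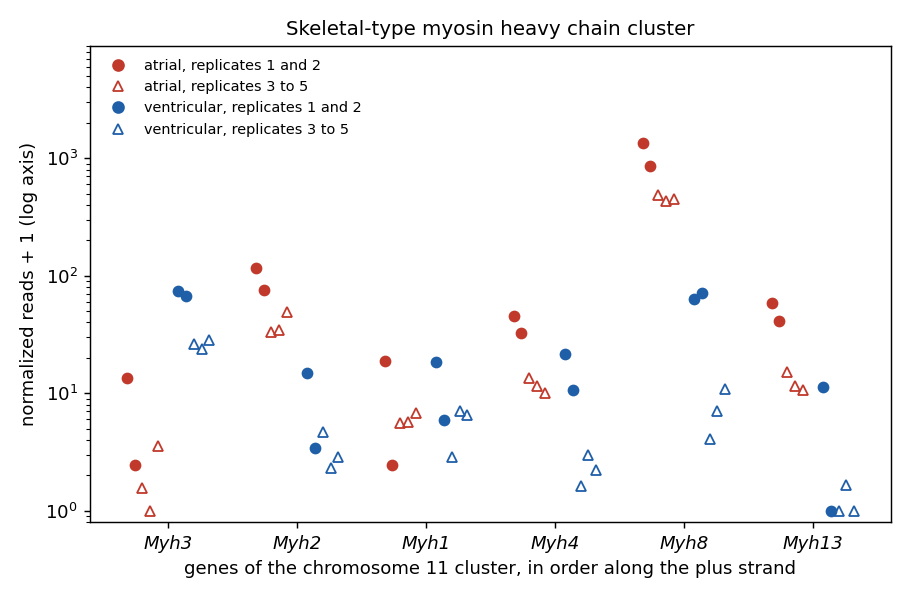
Normalized reads plus 1 (log axis) of the 6 skeletal-type myosin heavy chain genes in their order on chromosome 11, each point 1 library, atrial left and ventricular right within a gene, replicates 1 and 2 filled and replicates 3 to 5 open. Ventricular points lie above atrial ones for Myh3 and below them for Myh2 and Myh8, and Myh13 reaches at most 10.4 normalized reads in a ventricular library.

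The non-muscle chains IIA and IIB were at like levels in the chambers over all libraries and differed slightly within replicates 3 to 5. Myh9 (IIA, ENSMUSG00000022443, chromosome 15, 77760587 to 77842175, minus strand) had 1530, 921, 1218, 1258 and 1187 normalized reads in atrial replicates 1 to 5, and 962, 860, 1375, 1683 and 1558 in ventricular replicates 1 to 5. The groups overlapped. Compared at the same replicate number, replicates 1 and 2 were higher in the atrium and replicates 3 to 5 in the ventricle. The log2 difference was -0.04 ± 0.21 over all libraries (limma, adjusted p = 0.943). It was 0.38 ± 0.25 within replicates 1 and 2 (adjusted p = 0.490) and -0.33 ± 0.06 within replicates 3 to 5 (adjusted p = 0.000109). The difference between the sets did not pass (0.71 ± 0.25, limma interaction, adjusted p = 0.138), and it did without atrial replicate 2 (1.08, adjusted p = 0.00220).

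Myh10 (IIB, ENSMUSG00000020900, chromosome 11, 68691559 to 68816632, plus strand) had 2149, 1291, 2494, 2448 and 2549 normalized reads in atrial replicates 1 to 5, and 2024, 1633, 2984, 3140 and 3141 in ventricular replicates 1 to 5. In both chambers replicates 3 to 5 were above replicates 1 and 2. The log2 difference was -0.23 ± 0.24 over all libraries (limma, adjusted p = 0.650) and -0.31 ± 0.05 within replicates 3 to 5 (adjusted p = 3.27e-05). Within replicates 1 and 2 it was -0.13 ± 0.26 (adjusted p = 0.867).

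Myh14 (IIC, ENSMUSG00000030739, chromosome 7, 44605803 to 44670843, minus strand) had 44.1, 21.6, 38.6, 40.7 and 48.9 normalized reads in atrial replicates 1 to 5, and 93.4, 65.8, 62.6, 52.1 and 58.1 in ventricular replicates 1 to 5. The groups did not overlap, though the highest atrial and the lowest ventricular library were close. The log2 difference was -0.78 ± 0.24 and just missed the threshold (limma, adjusted p = 0.0553). With the replicate number as a block it passed (adjusted p = 0.0222), in a fit that called 32.3% of genes.

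Within replicates 3 to 5 alone, 8 of 9 members were called, against 52.8% of genes tested, and the exception was Myh6. The atrial value was the higher one for 2 of these (26.2% of genes) and the ventricular value for 6 (26.6%). Within replicates 1 and 2 alone 4 were called, against 5.14%, with Myh8 higher in atrial (3.09%) and Myh7, Myh7b and Myh3 in ventricular cells (2.04%). In the test of the difference between the sets, Myh7, Myh7b and Myh8 were called with a negative value, as were 1.53% of genes. The block added Myh14 to the 4 members called without it, and a term for library set added Myh7 and Myh14, in a fit that called 31.8% of genes.

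**Figure D4:**
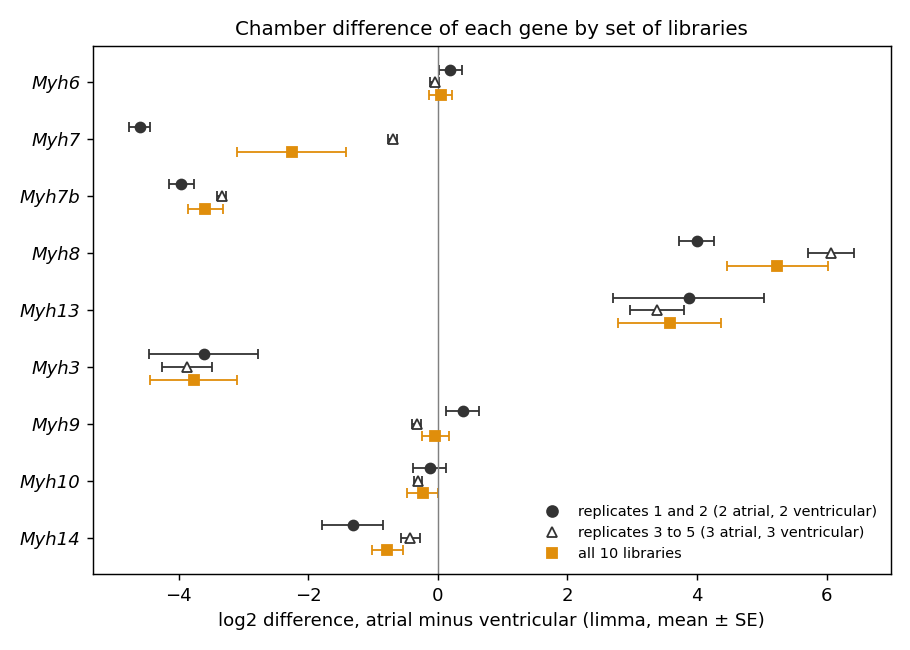
Log2 difference, atrial minus ventricular, of each myosin heavy chain gene (limma estimate ± SE) within replicates 1 and 2, within replicates 3 to 5 and over all 10 libraries. Myh7 lies at -4.60 in replicates 1 and 2 and at -0.69 in replicates 3 to 5, while the Myh13 and Myh3 values of replicates 3 to 5 lie within the error bars of replicates 1 and 2.

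Fibroblasts also express Myh9 and Myh10, and within replicates 3 to 5 the summed fibroblast markers were, like both genes, higher in the ventricle. The 8 genes listed (Col1a1, Col1a2, Col3a1, Dcn, Lum, Pdgfra, Tcf21 and Postn) summed to 21312 to 28679 in atrial and 9165 to 20067 normalized reads in ventricular libraries of replicates 1 and 2. In replicates 3 to 5 they summed to 34320 to 36361 in atrial and 48548 to 63474 in ventricular libraries. Over all libraries Pdgfra and Lum were called higher in ventricular cells, and 0 of the 8 in atrial cells (limma). Of genes tested, 6.56% were called toward ventricular and 8.12% toward atrial cells. Endothelial markers had 2 of 8 higher in atrial cells, with sums of 750 to 3387 in atrial and 234 to 1484 in ventricular libraries. The part of these cells in the Myh9 and Myh10 values was not tested.

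Of the other marker lists, 6 of 6 epicardial genes were higher in atrial cells, against 8.12% of genes tested. Their sums were 2386 to 5651 in atrial and 308 to 1426 normalized reads in ventricular libraries. Of 8 smooth muscle and pericyte genes 3 were higher in ventricular cells, Myh11 among them, against 6.56% of genes tested. Their sums were 1757 to 6663 in atrial and 9243 to 15694 in ventricular libraries. Macrophage and leukocyte genes (1 of 3 tested higher in atrial cells) summed to at most 168 in an atrial and 135 in a ventricular library, and Schwann and neuronal genes (1 tested, not called) to at most 73.1 and 62.3. The 4 erythroid genes listed were at 0 in every library. These zeros do not show that erythroid RNA was absent, since the annotation used for counting is not given.

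Divided by exon length, the members kept a wide range of levels. The lengths merge the exons of all annotated transcripts of a gene, and which transcripts these cells use was not measured. They were 12.9 kb for Myh9, 11.8 kb for Myh8 and 10.5 kb for Myh10, against 6.73 kb for Myh6 and 6.63 kb for Myh7b. The order of members at like levels depends on these lengths. Normalized reads per kilobase of merged exons averaged 28636 ± 7251 for Myh6, 1325 ± 87.8 for Myh7, 209 ± 50.1 for Myh10, 94.6 ± 16.7 for Myh9, 60.7 ± 33.5 for Myh8, 18.0 ± 3.68 for Myh7b, 5.33 ± 1.43 for Myh14, 4.29 ± 3.49 for Myh13 and 0.561 ± 0.847 for Myh3 in atrial cells (SD, n = 5). In this order the ranges of Myh9 and Myh8 overlapped, as did those of Myh14 and Myh13 and of Myh13 and Myh3. In ventricular cells the order was Myh6 at 27264 ± 3171, Myh7 at 14422 ± 16993, Myh10 at 247 ± 67.6, Myh7b at 232 ± 105, Myh9 at 99.6 ± 28.0, Myh14 at 9.13 ± 2.19, Myh3 at 7.06 ± 4.02, Myh8 at 2.58 ± 2.82 and Myh13 at 0.358 ± 0.741 per kilobase. Neighbours with overlapping ranges there were Myh6 and Myh7, Myh10 and Myh7b, and each pair from Myh14 down.

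The order per kilobase differed between the sets. Myh7 came before Myh6 in ventricular replicates 1 and 2, with means of 32866 ± 4590 for Myh7 and 30154 ± 959 for Myh6 (SD, n = 2) and overlapping ranges. In ventricular replicates 3 to 5 the means were 2126 ± 244 for Myh7 and 25337 ± 2394 for Myh6 per kilobase (SD, n = 3). Other members changed places between the sets as well. In ventricular replicates 1 and 2 Myh7b (345 ± 35.8 per kilobase) lay above Myh10 (175 ± 26.4) without overlap, and in ventricular replicates 3 to 5 below it (157 ± 2.98 against 295 ± 8.65), again without overlap. Myh3 (11.4 ± 0.799) came before Myh14 (10.9 ± 2.68) in ventricular replicates 1 and 2, with overlapping ranges, and after it in replicates 3 to 5. In atrial replicates 1 and 2 Myh13 (7.95 ± 2.02) lay above Myh14 (4.52 ± 2.19), and in atrial replicates 3 to 5 below it (1.86 ± 0.388 against 5.88 ± 0.748), both without overlap. Reads of the 9 genes together made up 4.80% and 3.71% of the reads in atrial replicates 1 and 2 and 2.40% to 2.63% in atrial replicates 3 to 5, against 8.31% and 7.80% in ventricular replicates 1 and 2 and 2.33% to 2.70% in ventricular replicates 3 to 5. Without the reads of the 45S precursor, the shares of replicates 3 to 5 were 3.39% to 3.42% in atrial and 3.23% to 3.71% in ventricular libraries. Ventricular replicates 1 and 2 thus stood above the other libraries on either count.

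Among non-muscle chains, Myh10 took 57.7% and 57.8% of the reads of Myh9, Myh10 and Myh14 in atrial replicates 1 and 2. It took 65.3% to 67.3% in atrial replicates 3 to 5 and 63.8% to 67.5% in the ventricular libraries. This share was thus lower in atrial replicates 1 and 2 than in the other 8 libraries.

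The genes whose log2 values followed a member most closely over the 10 libraries are given as a description, since all points share the same libraries and scaling. For Myh7 they included Sh3bgr (Pearson r = 0.974) and Rapsn (0.974). Sh3bgr averaged 2841 in atrial and 5976 in ventricular replicates 1 and 2, and 3058 in atrial and 3479 normalized reads in ventricular replicates 3 to 5, a much smaller range than that of Myh7. For Myh7b they were Ppip5k2, Septin6 and the muscle enolase Eno3 (r = 0.995, 0.994 and 0.994).

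For Myh6 the closest genes were Med20, Acp1 and Crybg3 (r = 0.973, 0.955 and 0.951). For Myh9 they were Hivep2, Fn1, which encodes fibronectin, and Stil (0.966, 0.956 and 0.955), for Myh10 Soga1, Prr5 and Mtss2 (0.995, 0.984 and 0.984), and for Myh14 Eepd1, Fbxo10 and the calcium channel subunit Cacnb2 (0.980, 0.974 and 0.954). Between members, Myh9 and Myh10 had r = 0.830, Myh8 and Myh13 0.889, Myh7b and Myh3 0.926, and Myh6 and Myh7 0.256.

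Genes that work with myosin heavy chains are given as lists, and no list was tested as a set. For these lists the background was 8.12% of genes tested toward the atrium and 6.56% toward the ventricle. With the replicate block it was 16.3% and 16.0%, so the counts describe the lists and show no pattern. Of 12 sarcomere partners, 3 passed toward the atrium and 3 toward the ventricle (4 and 3 with the replicate block), with a median log2 difference of 0.11. The light chains, which bind the neck of each heavy chain, divided by chamber, with Myl7 (6.62) and Myl4 (5.90) higher in atrial and Myl2 (-10.56) higher in ventricular cells. Mybphl, a myosin-binding protein, was higher in atrial cells (9.09).

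Of 12 genes of myosin folding and turnover, 2 passed toward the atrium and 2 toward the ventricle (2 and 4 with the block; median -0.16). Smyd2, a lysine methyltransferase, had a mean of 91.0 normalized reads in the atrium and 2483 in the ventricle (-4.89 ± 0.41, limma, adjusted p = 2.35e-05). The ubiquitin ligases Trim54 (2.74) and Fbxo32 (0.70) were higher in atrial and Trim55 (-0.39) in ventricular cells. The folding factor Unc45b had a log2 difference of -0.16 and did not pass (limma, adjusted p = 0.727).

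A further list held 16 myosin light chains and regulators, not all of them particular to non-muscle myosin. Mylk4 (2.38) and Myl9 (1.09) were higher in atrial cells and Mylk, a myosin light chain kinase, in ventricular cells (-2.01). With the block these counts were 3 and 2, and the median was -0.15. Of 22 regulators of cardiac myosin genes 21 were tested, and 3 passed toward the atrium and 2 toward the ventricle (6 and 2 with the block; median 0.04). They were Tbx5 (3.46), Sox6 (0.58) and Mef2c (0.38) toward atrial and Nfatc4 (-1.14) and the thyroid receptor partner Rxra (-0.68) toward ventricular cells. The thyroid hormone receptors, which act on Myh6 and Myh7 in opposite directions, did not pass, with log2 differences of -0.11 for Thra and 0.95 for Thrb (limma, adjusted p = 0.844 and 0.438; 0.00312 for Thrb with the block).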

How the data were processed

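RNA was extracted with Trizol, cleaned on Zymo columns and made into ScriptSeq v2 libraries, with total RNA as the molecule, per the labels' protocols. Trimmomatic, HISAT2 and featureCounts were used with GRCm38 (mm10), per the submitters' processing notes. The sources used here give no versions, annotation or strand setting. Per the file headers, the deposited signal of a gene is its count after DESeq2 normalization. Dividing by each library's smallest step gave whole reads, within 0.01, for 100% of values.

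The 12422 genes with a mean of 10 or more normalized reads entered limma 3.58.1 in R 4.3.3 (trend and robust variance, two-sided, pseudocount 1, Benjamini-Hochberg over all genes). Scripts were tested on simulated data. Alternatives included edgeR 4.0.16 and DESeq2 1.42.0 on recovered reads. Positions and exon lengths are those of GENCODE M21. The rule for named genes was the 9 members, the other Myh symbols, the 3 genes closest to each of 6 members by Pearson's r (unnamed gene models left out), and up to 4 genes with the smallest p of each list. Mef2c, Mef2d, Gata4, Srf, Unc45b, Thra, Thrb and the marker genes named were chosen after their values were seen. An item that the rule names is not reported here. Members and lists were chosen with earlier results of these data known.

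Replicate numbers run from 1 to 5 in both chambers. Libraries of the same number deviated together from their chamber's mean, with r = 0.582, 0.637, 0.623, 0.556 and 0.631. The division between the sets of replicates, which both chambers share, enters these values. The main fit did not pair the libraries, and the replicate block was an alternative. Within the 2 sets of replicates the coefficients of replicates 3, 4 and 5 were -0.0394, 0.00205 and 0.0678. Those of replicates 1 and 2 were 0.405, the same value because 2 libraries deviate from their mean by mirror amounts. Libraries of the same number thus still deviated together within replicates 1 and 2. No pair of replicate libraries agreed within sampling noise (lowest chi-square per degree of freedom 2.21).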

Additional observations from a re-analysis of the deposited data

Results flagged for a closer look

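The chamber effect of 3 members differed between replicates 1 and 2 and replicates 3 to 5 by the interaction term (limma, adjusted over all genes). The log2 value for replicates 1 and 2 minus that for replicates 3 to 5 was -3.91 for Myh7, -0.62 for Myh7b and -2.07 for Myh8. For Myh7 and Myh7b the ventricular excess was larger in replicates 1 and 2, and for Myh8 the atrial excess was smaller there.

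Among 18 groups of 5 libraries, 3 had 1 library far from the other 4 by Dixon's test at 95%, where chance flags about 1 in 20 groups. Myh6 reached 276695 normalized reads in atrial replicate 1. Myh3 reached 12.4 in the same library, from 9 reads. Myh13 reached 10.4 in ventricular replicate 1, from 3 reads. These were the libraries of each chamber with reads over the most symbols.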

How the results depend on the processing

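The chamber differences of Myh7b, Myh8 and Myh3 kept their direction and their call under every alternative run, and Myh13 lost its call within replicates 1 and 2 alone (3.87). Sizes moved with the pseudocount, which at 10 gave 4.44 for Myh8, 1.45 for Myh13 and -1.93 for Myh3. Myh7 kept its direction throughout. It passed with a term for library set (-2.26, adjusted p = 0.0176), within replicates 1 and 2 (-4.60), within replicates 3 to 5 (-0.69), with edgeR (-3.45) and with DESeq2 (-3.46), and did not with the replicate block (adjusted p = 0.0706). Myh14 passed with the replicate block and with library set as a term (-0.78 each), within replicates 3 to 5 (-0.43) and with DESeq2 (-0.69). Within replicates 3 to 5 Myh9 (-0.33) and Myh10 (-0.31) passed. The block changed no other member's call. Values near 0 changed sign without a call, Myh6 within replicates 3 to 5 (-0.050), and Myh9 within replicates 1 and 2 (0.38) and with libraries scaled to equal totals (0.026). The cause of these changes was not tested.

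Genes called between chambers numbered 1824, and 4017 with the replicate block, 3955 with library set as a term, 638 within replicates 1 and 2 and 6561 within replicates 3 to 5. Scaling to equal totals left 65.2% of calls toward atrial cells, against 55.3%. With 1 library left out the calls numbered 1365 to 1938, and member differences ran from -0.092 to 0.10 for Myh6, from -0.18 to 0.065 for Myh9 and, without a change of call, from -2.70 to -1.63 for Myh7.

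Genes whose chamber effect differed between the sets numbered 647, and with 1 library left out from 212 (without ventricular replicate 4) to 1686 (without ventricular replicate 2). It lay at or below 368 without any library of replicates 3 to 5 and at 1168 and 1546 without atrial replicates 1 and 2. Leaving out one of replicates 1 and 2 leaves a lone library, assumed to vary like the rest. That interaction was weaker for Myh7b with equal totals (-0.64) and for Myh8 with a pseudocount of 10 (-1.03), and changed sign without a call for Myh13 with edgeR (-1.72) and for Myh3 with a pseudocount of 10 (-0.63). With 1 library left out it ran from -0.73 to -0.51 for Myh7b, from -2.41 to -1.71 for Myh8, from -0.013 to 0.50 for Myh6, from -1.26 to 2.24 for Myh13, from -0.97 to 1.49 for Myh3, from 0.35 to 1.08 for Myh9, from -0.19 to 0.55 for Myh10 and from -1.39 to -0.39 for Myh14. Calls were gained there for Myh6, Myh9 and Myh10 without atrial replicate 2 and for Myh14 without atrial replicate 1. Myh13 and Myh3 rest on 132 and 182 reads in all, which limits their precision.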

Other observations

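Other genes of the heart muscle program were looked up for the sets of replicates after the Myh7 values had been seen, and no test was made between the sets. They included a list of 10 muscle isoforms of the early and late heart. Only some of the genes looked up are named here, so their values describe single genes and show no pattern of the list. Nppb, which encodes B-type natriuretic peptide, had means of 7281 ± 1318 normalized reads in atrial and 4555 ± 291 in ventricular replicates 1 and 2 (SD, n = 2), and 953 ± 130 in atrial and 570 ± 42.9 in ventricular replicates 3 to 5 (SD, n = 3). Unlike Myh7 it was higher in replicates 1 and 2 in both chambers, 7.64-fold in atrial and 7.99-fold in ventricular cells. Tnni1, the slow skeletal troponin I of the early heart, was 1.58-fold higher in replicates 1 and 2 in atrial and 1.63-fold in ventricular cells, and Tnni3, the adult cardiac form, 1.02-fold and 1.14-fold. The noncoding RNA H19 was 2.01-fold higher in replicates 1 and 2 than in replicates 3 to 5 in atrial cells and 2.37-fold in ventricular cells. Thrb had means of 20.9 ± 13.3 in atrial and 11.1 ± 8.79 in ventricular replicates 1 and 2, and 76.9 ± 15.3 in atrial and 38.5 ± 1.48 in ventricular replicates 3 to 5. Tead1 averaged 612 ± 399 in atrial and 444 ± 155 in ventricular replicates 1 and 2, and 2061 ± 104 in atrial and 1900 ± 117 in ventricular replicates 3 to 5. Lower values in replicates 1 and 2 were not particular to Thrb and Tead1. Mef2d stood at 0.377-fold there in atrial and 0.324-fold in ventricular cells, and Gata4 at 0.636-fold and 0.689-fold. Srf was not lower (1.03-fold and 1.34-fold). How many of all genes differed as much between the sets was not counted. Mki67, a marker of cycling cells, had 1267 to 2724 normalized reads in atrial and 1784 to 3844 in ventricular libraries.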
